A study of Mus musculus with 16 samples.

Results

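The 48 h arm of a treatment experiment on RAW264.7 cells was examined to see how 2 agents combine. RAW264.7 is a mouse macrophage line that can form osteoclasts. All cells attached for 12 h in medium with fetal bovine serum. They then received phosphate-buffered saline (PBS), RANKL at 10 ng/mL, extracellular vesicles (EV) from PC3M at 30 µg/mL, or vesicles and RANKL together (EV+RANKL). PC3M is a metastatic subline of the PC3 human prostate cancer line. No group received vesicles of another cell, and the groups are treatments of 1 line, given for 48 h or 72 h. The 4 groups of 48 h hold 8 of the 16 libraries, 2 in each group. All 16 libraries entered the fit, so that the spread was shared, and the contrast at 48 h covered 10365 of 20490 genes, those with at least 1 RPKM (reads scaled to gene length and library size) in 2 or more libraries.

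RANKL is the cytokine that drives osteoclast formation. It binds RANK (Tnfrsf11a) on macrophage-like precursors and acts through NF-κB, MAP kinases and calcium signals, which lead to the transcription factor NFATc1. NFATc1 in turn switches on genes for fusion, acid secretion and bone matrix breakdown, while macrophage genes are lowered. Vesicles are membrane particles that carry protein, lipid and RNA between cells, and those of prostate cancer cells have been studied as signals to bone.

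The question was whether the level with both agents is better described by adding or by multiplying the separate changes. Each gene was therefore set against 2 reference levels. The multiplicative level is where the cells would be if the vesicle change on the log2(RPKM + 1) scale were the same with and without RANKL. The distance from it is the interaction, (EV+RANKL minus RANKL) minus (EV minus PBS). The additive level is EV plus RANKL minus PBS in RPKM, and the distance from it is given as a log2 ratio of RPKM + 1. A distance of 0 means that the cells with both agents sit at that level. Where both agents raise a gene, or both lower it, the multiplicative level is the higher of the 2. Every log2 value below carries the added 1 RPKM, which understates the change of low genes. Library values are in RPKM.

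At 48 h hardly any gene was shown to depart from either level beyond the spread between libraries. The interaction passed limma's test in 1 of 10365 genes (0.00965%), Mmp8. Among the 10193 genes that have an additive level above 0, none passed the test against it (0.0%). Without adjustment, 318 genes (3.07%) had an interaction p under 0.05, of which 161 were above and 157 below the multiplicative level. The same count for the additive level was 257 genes (2.52%), of which 105 were above and 152 below. The median standard error of a gene was 0.168 for the interaction and 0.165 for the additive distance, and the median 95% interval reached 0.36 to each side in both. Smaller departures were not detectable in most genes, and this interval is not adjusted for the number of genes. Much larger departures could miss the adjusted threshold, as did the interactions of Acp5 (-2.39 ± 0.36) and Atp6v0d2 (-2.11 ± 0.45). In 9467 of the 10193 genes (92.9%) the 2 levels lie within 0.1 log2 of each other, so most genes cannot tell the 2 rules apart.

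The single changes behind these contrasts were much more numerous for RANKL than for vesicles. Against PBS, vesicles changed 134 genes (1.29%), 63 upward (0.608%) and 71 downward (0.685%). RANKL changed 1530 genes (14.8%), 671 upward (6.47%) and 859 downward (8.29%). On top of RANKL, vesicles changed 45 genes (0.434%), 28 upward (0.27%) and 17 downward (0.164%). The first and last of these comparisons share no library, but a gene past the threshold in only 1 of them has not been shown to differ between them. Whether the 2 libraries of a group were grown separately is not stated, and the p-values cover the spread between these libraries alone, which may be technical. The 4 groups had similar depth, with 0.957 to 1.037 of the median number of reads as recovered from the steps between low values over all libraries, and 14779 to 15254 genes above 0. Macrophage markers were abundant in every 48 h library, with Lyz2 reaching 6080 RPKM. The summed level of the 8 macrophage markers was 7170 to 7730 RPKM with PBS, 5690 to 7010 with EV, 2960 to 3000 with RANKL and 2160 to 2560 with both. Of the 4 epithelial carcinoma markers in the table, Epcam, Krt8 and Krt19 were listed at 0 throughout, and the summed level ran from 0 with PBS to between 0.126 and 0.176 with both agents (highest gene Met). Markers of stroma and of other blood cells reached at most 0.792 RPKM (Runx2) and 1.64 RPKM (S100a8). In bulk RNA, fewer cells expressing a gene and less RNA per cell cannot be told apart.

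Several osteoclast genes that each agent raised alone, Acp5, Atp6v0d2 and Nfatc1 among them, lay far below the multiplicative level and at or above the additive one, though no distance of theirs passed the adjusted threshold. Acp5, which encodes tartrate-resistant acid phosphatase, read 0.564 and 0.872 with PBS, 20.5 and 16.2 with EV, 88 and 85.4 with RANKL, and 209 and 168 with both. The 4 groups did not overlap, and the cells with both agents were the highest. Multiplication would have given 984 RPKM and addition 104 RPKM, against 187 RPKM measured as the group mean on the log scale. The interaction was -2.39 ± 0.36 (SE, 95% interval -3.18 to -1.6, limma adjusted p = 0.0749), and the additive distance was 0.84 ± 0.24 (0.32 to 1.36, adjusted p = 1). Acp5 rose with vesicles alone (3.49 ± 0.26, adjusted p = 2.5e-05) and with RANKL alone (5.68 ± 0.26, adjusted p = 2e-07). Vesicles on top of RANKL gave 1.1 ± 0.26, which missed the threshold (adjusted p = 0.0914). The interaction passed it with 48 h libraries only (adjusted p = 0.00699) and with 0.1 RPKM added in place of 1 (-3.4, adjusted p = 0.0189).

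Atp6v0d2, a subunit of the proton pump that also takes part in cell fusion, followed the same order. It read 0.413 and 0.518 with PBS, 16.7 and 10.8 with EV, 63.8 and 53.3 with RANKL, and 161 and 112 with both. The multiplicative level was 585 RPKM, the additive level 71.3 RPKM and the measured level 135 RPKM. So the cells with both agents were above the sum of the parts and well short of their product, with an interaction of -2.11 ± 0.45 (-3.08 to -1.14, adjusted p = 0.376) and an additive distance of 0.91 ± 0.29 (0.27 to 1.54, adjusted p = 1). Neither distance passed the test.

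Nfatc1, the master transcription factor of osteoclasts, sat on the additive level. It read 11 and 12.9 with PBS, 46.7 and 49.7 with EV, 93.9 and 101 with RANKL, and 147 and 141 with both. Both libraries with both agents exceeded both RANKL libraries, yet the vesicle change was 1.93 ± 0.17 without RANKL (adjusted p = 9.6e-05) and 0.56 ± 0.17 with it (adjusted p = 0.202). Addition gives 134 RPKM, the cells held 144 RPKM, and multiplication gives 374 RPKM. The interaction was -1.37 ± 0.23 (-1.88 to -0.86, adjusted p = 0.108) and the additive distance 0.1 ± 0.15 (-0.22 to 0.43). With 48 h libraries only the interaction passed the threshold (adjusted p = 0.00699). Rcan1, a calcineurin inhibitor that is a known NFAT target, was close to this pattern, with 10.4 and 11.3 under PBS, 31.7 and 37.5 under EV, 35.9 and 45.2 under RANKL, and 48.2 and 58 under both. Its interaction was -1.2 ± 0.25 and its additive distance -0.27 ± 0.16.

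Other genes that each agent raised lay on either side of the additive level. The transcription factor genes Fosl2 and Jdp2, which encode AP-1 family members that bind as dimers, were above it. Fosl2 read 2.72 and 3.45 with PBS, 12.9 and 11.4 with EV, 24.1 and 22.8 with RANKL, and 51.1 and 45.4 with both, for an additive distance of 0.55 ± 0.16 and an interaction of -0.68 ± 0.25. Jdp2 read 16.6 and 13.7, 47.1 and 47.5, 91.5 and 86.9, and 174 and 180 in the same order, for an additive distance of 0.54 ± 0.13 (adjusted p = 0.829) and an interaction of -0.6 ± 0.19. In both genes vesicles raised the level further on top of RANKL, by 1.01 ± 0.17 for Fosl2 (adjusted p = 0.0291) and by 0.98 ± 0.14 for Jdp2 (adjusted p = 0.00782). The measured level of each lay between its 2 references.

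Cst7, Atp2a3 and Gja1 were at or below the additive level. Cst7, the gene of the cysteine protease inhibitor cystatin F, read 2.17 and 1.15 with PBS, 12.7 and 8.18 with EV, 13.5 and 14 with RANKL, and 20 and 14.1 with both, so that the highest RANKL library and the lowest library with both agents nearly touched. Its interaction was -1.83 ± 0.33 and its additive distance -0.39 ± 0.21. Atp2a3, a calcium pump of the endoplasmic reticulum, read 14.4 in each RANKL library and 16.2 and 12.1 with both, although vesicles alone had raised it from 2.56 and 3.41 to 7.51 and 7.48 (1.1 ± 0.14, adjusted p = 0.00211). Vesicles thus gave no measurable change on top of RANKL for this gene (-0.04 ± 0.14), and the cells with both agents were below both levels. Gja1, the gap junction protein connexin 43, read 4.06 and 3.12, then 21.5 and 16, then 15.4 and 9.26, then 28.2 and 21.2, with an additive distance of -0.14 ± 0.2. The MYC gene Myc, a regulator of growth, was variable, from 28.4 to 48.7 with RANKL and from 48 to 77.1 with both, and its interaction was -0.84 ± 0.47. Angptl2, which encodes a secreted angiopoietin-like protein, was at 7.21 and 7.28 with both agents against 6.36 and 7.53 with EV and 1.75 and 1.53 with RANKL, which is the additive level within error (-0.08 ± 0.13).

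**Figure D1:**
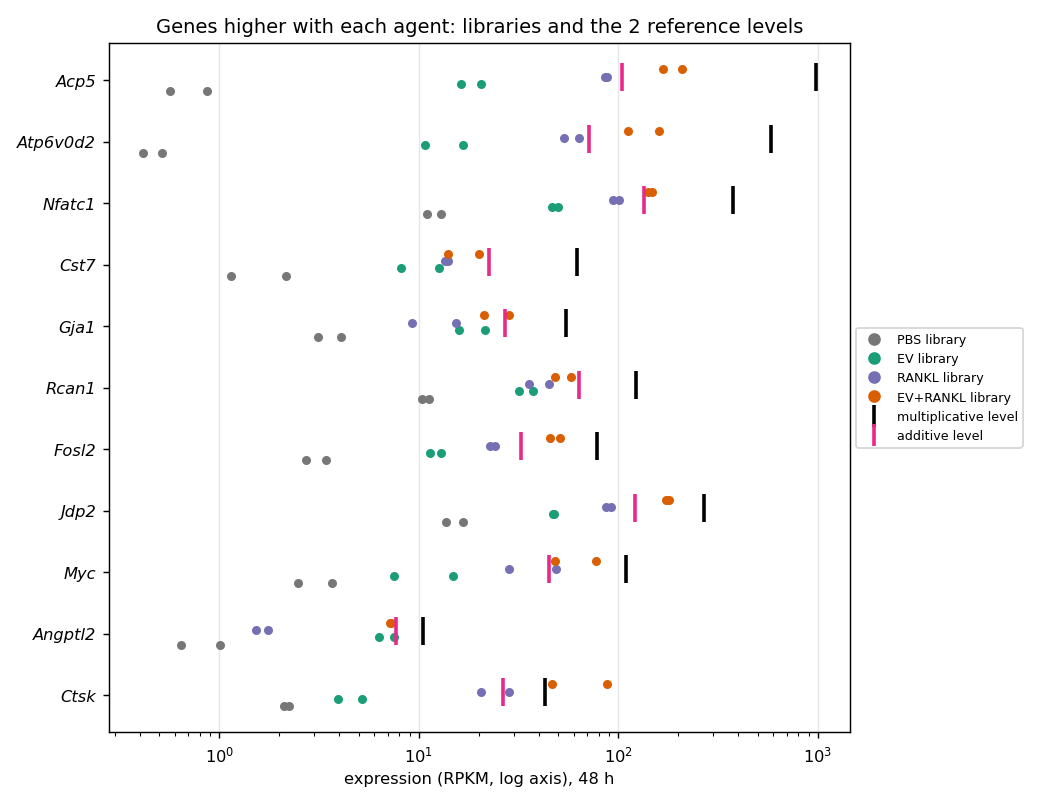
Expression of 11 genes at 48 h in RPKM on a log axis, 1 point per library, coloured by group. Black bars mark the multiplicative level and pink bars the additive level. For Acp5, Atp6v0d2 and Nfatc1 the libraries with both agents lie far left of the black bar, at 984, 585 and 374 RPKM, while for Ctsk they lie right of both bars.

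The cathepsin K gene Ctsk, the main collagen-degrading protease of osteoclasts, stood on the other side. It read 2.23 and 2.11 with PBS, 5.19 and 3.92 with EV, 28.5 and 20.5 with RANKL, and 87.9 and 46.4 with both. Both libraries with both agents were above the multiplicative level of 42.8 RPKM and the additive level of 26.5 RPKM. They differed from each other so much that the interaction, 0.57 ± 0.7, had an interval from -0.95 to 2.08, and the additive distance was 1.24 ± 0.48 (adjusted p = 1). Acp5 and Ctsk, both textbook osteoclast products, thus fell on opposite sides of the multiplicative level, although the Ctsk interval includes 0.

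A small set of genes had no vesicle change past the threshold without RANKL and was higher with both agents. Rab15, a small GTPase of endosome recycling, was listed between 0 and 0.0116 with PBS and between 0.0116 and 0.113 with EV, read 0.513 and 0.791 with RANKL, and 3.39 and 3.04 with both. The vesicle change was 0.08 ± 0.15 without RANKL (adjusted p = 0.965) and 1.36 ± 0.15 with it (adjusted p = 0.00328). Its additive distance, 1.31 ± 0.18 (0.92 to 1.69), came nearest to the threshold of any gene tested for it (adjusted p = 0.0653), and its interaction was 1.28 ± 0.22 (adjusted p = 0.108). With 48 h libraries only the additive distance passed (adjusted p = 0.0399). Rab15, with Rufy4, Slc9b2 and Ccr1, was named after its values were seen.

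Rufy4, which links lysosomes to their transport, was listed at 0 in both PBS libraries and read 0.202 and 0.115 with EV, 1.39 and 0.773 with RANKL, and 4.27 and 2.5 with both. Slc9b2, a sodium-proton exchanger of osteoclasts, read 0 and 0.00984 with PBS, 0.495 and 0.253 with EV, 1.42 and 2.15 with RANKL, and 5.88 and 4.11 with both. Its vesicle change alone was 0.45 ± 0.27. Its interaction of 0.66 ± 0.38 turned to -0.69 with 0.1 RPKM added in place of 1. Ccr1, a chemokine receptor of the monocyte lineage, read 0.68 and 0.325, 1.55 and 1.24, 3.87 and 3.41, and 12.2 and 8.24 from PBS to both agents. Its EV libraries were above PBS without overlap (0.68 ± 0.32, limma adjusted p = 0.462), and its interaction was 0.57 ± 0.46. In these 3 genes the libraries with both agents were the highest and overlapped with no other group, at additive distances of 0.96 ± 0.24, 0.92 ± 0.28 and 1.0 ± 0.32, none past the adjusted threshold. The kinase gene Src, needed for the ruffled border, had 5.18 and 4.43 with RANKL and 9.86 and 6.91 with both, with an additive distance of 0.52 ± 0.25. The sialyltransferase gene St6galnac4 read 5.62 and 5.51 with RANKL and 10.5 in each library with both (vesicle change on RANKL 0.81 ± 0.13, adjusted p = 0.0226), for an additive distance of 0.54 ± 0.15. Unlike these, B4galt1, a galactosyltransferase, rose with vesicles alone from 13.4 and 16.6 to 27.8 and 36.3 (1.04 ± 0.15, adjusted p = 0.00399). Bcar3, an adaptor of integrin signalling, had a vesicle change of 1.09 ± 0.24 that missed the threshold (adjusted p = 0.0525). Bcar3 and B4galt1 were at distances of 0.57 ± 0.25 and 0.33 ± 0.16 from the additive level.

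Some genes that RANKL lowered were higher again when vesicles were present. Plau, the urokinase gene, read 62.3 and 65.5 with PBS and 58.1 and 70 with EV, so that vesicles alone made no visible difference. RANKL took it to 15.4 and 10.7, and both agents together gave 33.6 and 29.3. The vesicle change on top of RANKL was 1.22 ± 0.23 (adjusted p = 0.0391), and the interaction was 1.23 ± 0.32 (0.53 to 1.92, adjusted p = 0.659). Cd109, a membrane protein that binds TGF-β, gave a like picture, with 14.8 and 18.1 under PBS, 17.2 and 24.2 under EV, 6.66 and 6.11 under RANKL, and 18.6 and 17 under both. Its level with both agents lay within the range of PBS and EV, its vesicle change on RANKL was 1.35 ± 0.16 (adjusted p = 0.00328), and its interaction was 1.04 ± 0.23 (adjusted p = 0.401).

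Myo1e, an actin motor of podosomes, read 39.7 and 48.2, 34.8 and 39.5, 30 and 28.7, and 44.2 and 43.8, again with both agents back in the PBS range. Its vesicle change on RANKL, 0.57 ± 0.12, missed limma's threshold (adjusted p = 0.0755). Gpnmb, a lysosomal membrane glycoprotein of macrophages and osteoclasts, had the largest interaction in size above 0, 2.4 ± 0.59 (1.13 to 3.68, adjusted p = 0.546). It read 286 and 284 with PBS, 142 and 118 with EV, 61.1 and 32.3 with RANKL, and 127 and 93 with both, and it was named after its values were seen. Both single agents gave lower Gpnmb than PBS, and the cells with both agents were higher than with RANKL alone without overlap. That vesicle change on RANKL, 1.27 ± 0.42, also missed limma's threshold (adjusted p = 0.267). Slc6a8, the creatine transporter, was above the RANKL libraries by 1.5 ± 0.26 (adjusted p = 0.0326), with an interaction of 0.74 ± 0.37. RANKL alone was not shown to lower Slc6a8 (-0.33 ± 0.26, limma adjusted p = 0.441). Ifi202b, an interferon-inducible gene with a near-identical copy, read 6.3 and 10.8 with PBS, 2.78 and 3.4 with EV, 4.31 and 5.74 with RANKL, and 9.19 and 7.52 with both, at an interaction of 1.82 ± 0.44 (adjusted p = 0.546). Its RANKL change also missed the threshold (-0.63 ± 0.31, limma adjusted p = 0.203), as did its vesicle change on RANKL (0.64 ± 0.31, adjusted p = 0.678). Filip1l differed from these genes, since RANKL did not lower it (0.02 ± 0.23). Vesicles lowered Filip1l alone (-1.47 ± 0.23, limma adjusted p = 0.00853). It read 7.03 and 9.41 with RANKL and 4.17 and 3.75 with both, at an interaction of 0.59 ± 0.33.

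In the opposite direction, several genes that RANKL raised were lower with both agents. Pmaip1, which encodes the pro-apoptotic protein NOXA, read 14.1 and 11.9 with PBS, 8.92 and 7.57 with EV, 32.8 and 30.9 with RANKL, and 12.6 and 12.5 with both. RANKL raised it by 1.24 ± 0.15 (adjusted p = 0.00019), and vesicles on top of RANKL lowered it by 1.27 ± 0.15 to the PBS range (adjusted p = 0.00328). It was below both levels, by -0.68 ± 0.22 for the multiplicative and -1.05 ± 0.18 for the additive one (adjusted p = 0.295, or 0.0399 with 48 h libraries only).

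Naaa, a lysosomal amidase of lipid signals, read 3.81 and 4.68, 4.63 in each EV library, 10.5 and 10.7, and 5.97 and 6.98, and vesicles lowered it on RANKL (-0.64 ± 0.12, adjusted p = 0.0494). Cass4, a focal adhesion scaffold, read 3.03 and 2.97, 3.06 and 3.22, 4.32 and 6.12, and 2.25 and 2.93, also lowered on RANKL (-0.79 ± 0.14, adjusted p = 0.0291). In both genes vesicles alone left the level near PBS, but their interactions, -0.74 ± 0.18 and -0.83 ± 0.19, missed limma's adjusted threshold (adjusted p = 0.53 and 0.499). Clec4n, the dectin-2 receptor, read 9.92 and 8.48 with RANKL and 2.68 and 3.85 with both, with an interaction of -1.32 ± 0.37. Bcl2a1d, an anti-apoptotic gene with near-identical copies whose reads may be split, was not raised by RANKL, with 22.2 and 25 under PBS. It read 20.7 and 25.4 with RANKL and 11.4 and 13.1 with both (-0.86 ± 0.16, adjusted p = 0.0373). Ptpn6, the phosphatase SHP-1, read 160 in each RANKL library and 135 and 131 with both, at an interaction of -0.49 ± 0.12. The vesicle change on RANKL missed limma's threshold for Ptpn6 (-0.27 ± 0.09, adjusted p = 0.25) and for Clec4n (-1.27 ± 0.26, adjusted p = 0.0622). Their interactions missed it too (adjusted p = 0.558 and 0.82).

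Several macrophage genes that each agent lowered were about as low with RANKL alone as with both agents, while others, described further on, were lower still with both. Mmp8, a neutrophil-type collagenase, was the 1 gene whose interaction passed the test, 1.73 ± 0.16 (1.38 to 2.08, adjusted p = 0.00115). It read 3.66 and 3.88 with PBS, 0.47 and 0.457 with EV, 0.0438 and 0.0204 with RANKL, and 0.0612 and 0.0416 with both. Vesicles lowered it alone by 1.7 ± 0.11 (adjusted p = 1.2e-05), and on top of RANKL the change was 0.03 ± 0.11. The multiplicative level is -0.683 RPKM and the additive level -3.27 RPKM, values that no library can reach. With RANKL alone the gene was already close to 0. With 0.1 RPKM added in place of 1 the call was lost (2.98, adjusted p = 0.442), and with a filter of 5 RPKM the gene was not tested. It reached 1 RPKM in no library other than those of PBS at 48 h, so it passed the filter only through the group where it is high, and with levels below 0 the interaction could take no other sign. The multiplicative level was below 0 in 54 of the 10365 genes and the additive level at or below 0 in 172.

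Other macrophage genes also had reference levels below 0. Igf1, a growth factor gene of macrophages, read 37.8 and 39.3 with PBS, 8.48 and 9.8 with EV, 1.91 and 0.994 with RANKL, and 1.12 and 0.86 with both, and its multiplicative level was -0.383 RPKM. No library can reach that level, so the interaction, 1.69 ± 0.4 (adjusted p = 0.53), could only be above 0. The vesicle change was -1.97 ± 0.28 without RANKL (adjusted p = 0.00479) and -0.28 ± 0.28 with it. The complement genes C1qa and C1qb, named after their values were seen, were at most 0.103 with RANKL and at most 0.0481 with both, with C1qb listed at 0 in all 4 of these libraries. Their PBS libraries held 2.57 and 1.66 for C1qa, and 3.09 and 2.29 for C1qb. Their interactions were 1.42 ± 0.21 (adjusted p = 0.0749) and 1.4 ± 0.23 (adjusted p = 0.108). Their multiplicative levels were -0.617 and -0.62 RPKM, so these interactions could only be above 0. C1qa, like Mmp8, reached 1 RPKM in no library other than those of PBS at 48 h. It therefore passed the filter only through the group where it is high. Pram1, an adaptor of myeloid cells, had 5.33 and 9.79 with PBS, 0.945 and 1.36 with EV, 0.514 and 0.415 with RANKL, and 0 and 0.169 with both. Its multiplicative level was -0.621 RPKM.

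Msr1 and Slc7a8 stayed well above 0 in all groups. Msr1, the scavenger receptor A gene, read 79.4 and 95.6 with PBS, 50.2 and 63.7 with EV, 24.4 and 23.6 with RANKL, and 23.7 and 25.9 with both. Vesicles lowered it alone (-0.61 ± 0.13, adjusted p = 0.0345) and the level on RANKL overlapped with the RANKL libraries (0.05 ± 0.13). Its multiplicative level was 15.3 RPKM, its additive level was below 0, and the interaction was 0.66 ± 0.18 (0.27 to 1.05, adjusted p = 0.745). Slc7a8, an amino acid transporter, read 68.2 and 72.9, 23.1 and 27.3, 12 and 6.98, and 6.66 and 5.38, with both agents slightly below RANKL alone and an interaction of 0.91 ± 0.4. Nqo1, an NRF2 target that detoxifies quinones, read 1.65 and 1.39 with PBS, 0.236 and 0.241 with EV, 0.658 and 0.0965 with RANKL and 0.225 and 0.296 with both. Its multiplicative level was -0.337 RPKM, so its interaction, 0.93 ± 0.23, could only be above 0. Like Mmp8 and C1qa, Nqo1 reached 1 RPKM in no library other than those of PBS at 48 h. It therefore passed the filter only through the group where it is high. The cytokine gene Il10 and the Fc receptor gene Fcgr3 had interactions of 0.75 ± 0.23 and 0.63 ± 0.64. The multiplicative level of Il10 was -0.04 RPKM, so its interaction could only be above 0.

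Several interferon-stimulated genes that each agent lowered lay close to the multiplicative level. Irf7, the transcription factor that amplifies interferon production, read 10.5 and 17.2 with PBS, 3.71 and 5.43 with EV, 5.75 and 7.22 with RANKL, and 1.76 and 2.04 with both. The cells with both agents were the lowest without overlap, and the measured 1.9 RPKM compared with a multiplicative level of 1.83 RPKM and an additive level of -2.55 RPKM. Its interaction was 0.03 ± 0.39, with an interval from -0.8 to 0.87 that leaves room for a sizeable departure either way. Ifi44, an interferon-induced antiviral gene, read 8.16 and 12.9, 2.89 and 4.75, 3.84 and 5.52, and 1.53 and 1.51, with a multiplicative level of 1.35 RPKM. Dhx58, an RNA sensor, read 5.28 and 5.57, 2.3 and 3.51, 2.51 and 2.2, and 1.36 and 1.15, with a multiplicative level of 1.02 RPKM. Oas3, which makes the second messenger of RNase L, read 4.43 and 4.57 with both agents and had a multiplicative level of 3.61 RPKM. Each agent alone lowered all 4 genes past the threshold, with vesicle changes between -1.4 and -0.73 and RANKL changes between -1.01 and -0.73, while the vesicle change on RANKL, between -1.36 and -0.57, missed it (adjusted p from 0.0551 to 0.103). Their interactions lay between 0.03 and 0.25 and each turned negative when a single library was left out, for Irf7 and Ifi44 also with 0.1 RPKM added in place of 1.

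Not every interferon gene could be read this way. Ifi204 read 0.958 and 0.782 with RANKL and 0.743 and 0.634 with both, above a multiplicative level of -0.12 RPKM, at an interaction of 0.94 ± 0.3. No library can reach that level, so this interaction could only be above 0. Gda, the guanine deaminase gene, and Themis2, a signalling adaptor of myeloid cells, were lowered by vesicles on top of RANKL (-1.23 ± 0.24 with adjusted p = 0.0495, and -1.04 ± 0.17 with adjusted p = 0.0281). Gda read 13 and 13.3, 6.3 and 7.25, 6.68 and 4.49, and 2 and 1.57, lowest with both agents and below its multiplicative level of 2.57 RPKM (interaction -0.36 ± 0.34).

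**Figure D2:**
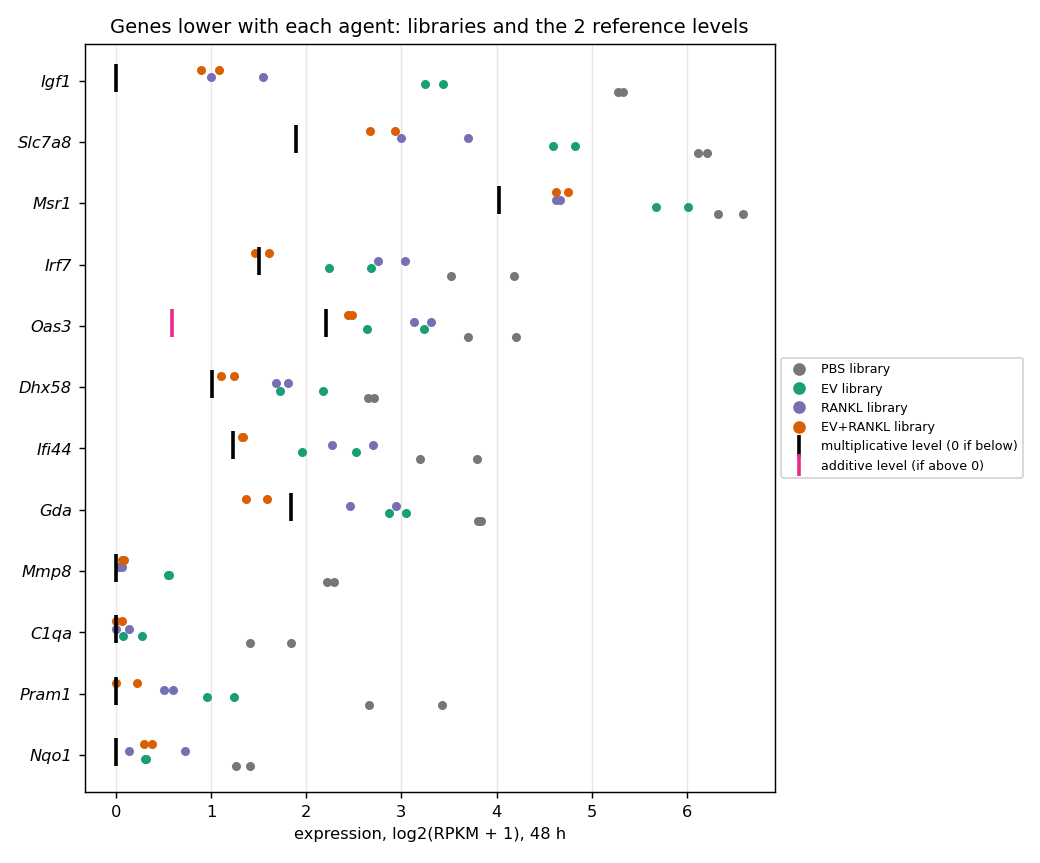
Expression of 12 genes at 48 h as log2(RPKM + 1), 1 point per library, coloured by group. Black bars mark the multiplicative level, drawn at 0 where it is below 0, and a pink bar marks the additive level where it is above 0, which holds for Oas3 only. For Irf7, Dhx58 and Ifi44 the libraries with both agents lie at the black bar, while for Igf1, Slc7a8 and Msr1 they lie to its right, near the RANKL libraries.

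For the receptor of RANKL and several other osteoclast genes, the vesicle change was small at 48 h. Tnfrsf11a, the RANK receptor gene, read 32.8 and 36.8 with PBS, 32.2 and 35.9 with EV, 38.3 and 36.5 with RANKL, and 35.9 and 35.4 with both. The PBS range overlapped each of the other groups, and the interaction was -0.04 ± 0.29 (-0.65 to 0.58). Ocstamp, which is needed for fusion, read 0.745 and 0.739, 0.988 and 1.01, 8.84 and 8.36, and 10.5 and 10.9, and rose with RANKL (2.46 ± 0.21, adjusted p = 2e-05). Its interaction was 0.09 ± 0.3, or -0.07 with 0.1 RPKM added in place of 1. The gelatinase gene Mmp9 read 8.93 and 5.61 with RANKL and 6.7 and 4.3 with both, and Irf8, a macrophage factor that restrains osteoclasts, read 0.96 and 0.808 with RANKL and 0.971 and 0.788 with both. The intervals of these genes were wide (for Mmp9, -1.51 to 0.72). Dcstamp, another fusion gene, read 4.69 and 5.19 with RANKL and 7.5 and 6.66 with both, with an interaction of 0.6 ± 0.49. Oscar, a costimulatory receptor, and Itgb3, the β3 integrin, were low, at no more than 3.38 and 0.373, and their intervals spanned 0.

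Addition and multiplication were compared in genes with an additive level above 0 and 2 levels at least 0.5 log2 apart. This left out the 172 genes with an additive level at or below 0, Msr1, Irf7, Slc7a8 and Gpnmb among them. The compared genes were 136, and the level with both agents was nearer the multiplicative level in 111 and the additive level in 25. The balance differed by direction. Of 27 genes higher with each agent, 23 were nearer the additive level. Of 102 genes lower with each agent, 101 were nearer the multiplicative level, Lyz2 being the exception. In 7 genes the single changes had opposite signs, and 6 of these were nearer the multiplicative level. Of the 27 higher genes, 17 lay between the 2 levels, 9 lay below both and 1, Ctsk, lay above both. Of the 102 lower genes, 87 lay above both levels and 15 between them. A gene above both counts as nearer the multiplicative level, the higher of the 2, and a gene below both as nearer the additive level. The additive level of a lower gene can carry a large error. Ifitm3 lay 3.12 above it and Tnip3 3.72 (unadjusted p = 0.302 and 0.614 in the additive test). So 101 of 102 does not show that the lower genes follow multiplication. None of these 136 genes passed either test after adjustment.

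The 27 higher genes were Acp5, Atp6v0d2, Nfatc1, Cst7, Gja1, Rcan1, Atp2a3, Fosl2, Jdp2, Myc and Ctsk, described above, with Rgs16, Tm4sf19, Rilpl1, Bhlhe40, Vegfc, Cxcr3, Ppm1j, Ndrg4, Rai14, Kbtbd11, Acy1, Hmx2, Pltp, Ank, Plcb4 and 1 predicted gene. Rai14, an actin-bound protein, was measured at 38.4 RPKM against an additive level of 36.9 and a multiplicative level of 66.9. Pltp, the phospholipid transfer protein, was at 42.7 RPKM against 43.8 and 83.4, and Plcb4, a phospholipase C, at 28.4 against 27.7 and 41.2. The chemokine receptor gene Cxcr3 was at 5.26 RPKM against 5.16 and 7.94. In these 4 genes the additive distance was between -0.04 and 0.05. Bhlhe40, a transcription factor, Rgs16, which turns off G proteins, and Rilpl1 were nearer the multiplicative level, Bhlhe40 at 14.0 RPKM against 14.4. These genes were listed after their values were seen.

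**Figure D3:**
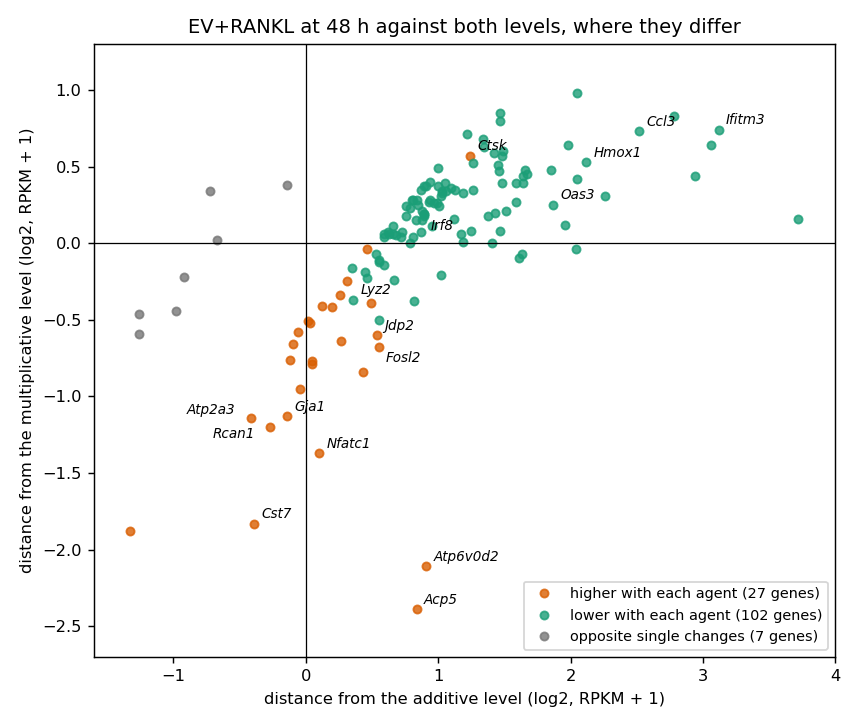
The 136 genes with an additive level above 0 whose 2 levels differ by at least 0.5 log2, 1 point per gene. The x axis is the distance of the EV+RANKL mean from the additive level and the y axis that from the multiplicative level. Both are log2 of RPKM + 1. Most of the 27 genes higher with each agent lie near x = 0 and below y = 0, and most of the 102 genes lower with each agent lie right of x = 0 and nearer to y = 0.

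This split weakened when both the genes and the gap between their levels were picked at 72 h. The group means that set both levels also enter the distances and share their error. Genes called in the same direction with each agent against PBS at 72 h use none of the 48 h libraries. Of all tested genes, vesicles raised 10.4% and lowered 7.83% at 72 h, and RANKL raised 9.73% and lowered 9.13%. Among these, 20 of 22 higher genes were nearer the additive level at 48 h and 13 of 13 lower genes nearer the multiplicative level, but these genes still had to have levels 0.5 log2 apart at 48 h. Another set, chosen after seeing the data, took genes whose levels differ by at least 0.5 log2 at 72 h. Their additive levels had to be above 0 RPKM at both times. Direction was set by the signs of both mean changes at 72 h, without a call. There, 31 of 51 higher genes were nearer the additive level at 48 h and 40 of 60 lower genes nearer the multiplicative level. No gap at 48 h was required, so the 2 levels of some of these genes may hardly differ at 48 h. Leaving out each 48 h library in turn gave 20 to 23 of 25 to 28 higher genes near the additive level, and 87 to 124 of 90 to 124 lower genes near the multiplicative level.

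All 372 genes called higher with each agent at 72 h had a median interaction of -0.065 at 48 h, with 241 below 0 and 131 above. Their median vesicle change at 48 h was 0.17 without RANKL and 0.1 with it. The 194 genes called lower with each agent at 72 h had a median interaction of 0.076, with 144 above 0 and 50 below, and a median vesicle change of -0.11 without RANKL and -0.06 with it. Over all tested genes the median interaction was -0.022, with 5853 below 0 and 4512 above. The median additive distances were -0.022 for the higher genes, 0.088 over the 175 lower genes that have such a level above 0 RPKM, and -0.016 over all genes. Both medians depended on single libraries. Without replicate 2 of EV+RANKL they were -0.024 and 0.025, without replicate 1 they were -0.113 and 0.122, and the lower genes gave 0.043 without replicate 1 of RANKL.

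Across genes, the vesicle change with RANKL followed the vesicle change without it. Over 10365 genes Pearson's r was 0.565 and Spearman's rho 0.463, and over the 553 genes with a change past 0.5 log2 in either, which were picked on these values, they were 0.687 and 0.661. The 2 changes share no library, and genes are not independent replicates. Acp5, Atp6v0d2, Nfatc1 and Cst7 lay far below the line of equal change. Gpnmb, Plau, Cd109 and Rab15 lay far above it.

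**Figure D4:**
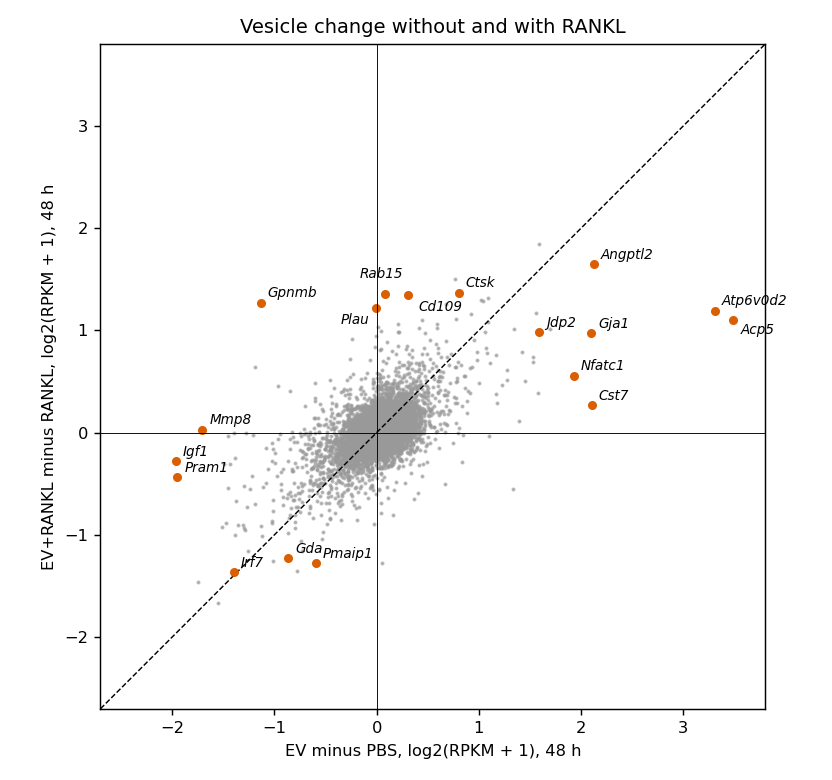
Vesicle change at 48 h without RANKL (x axis) and with RANKL (y axis), both as differences of mean log2(RPKM + 1), 1 grey point per gene for 10365 genes. The dashed line is equal change, which is an interaction of 0. Orange points are named genes, among them Acp5 at 3.49 and 1.1 and Plau near 0 and 1.22.

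Among 16 lists of genes with related roles, no member passed either test, Mmp8 being in none. The resorption list had 21 tested genes, with a median interaction of 0.26, or 0.13 without replicate 1 of EV+RANKL, 16 above and 5 below 0. Acp5, Atp6v0d2 and Cst7 were below 0 and Acp2 and Ctsb above 0 at an unadjusted p under 0.05, where the background is 1.51% for below and 1.55% for above. The list of osteoclast transcription factors had 23 tested genes and a median interaction of 0.02, with Nfatc1, Fosl2, Jdp2 and Tfeb below 0 and Prdm1 above at that p. So the osteoclast genes with large negative interactions were a few members, and neither list had a median below 0, though that of the transcription factors was -0.07 without replicate 2 of EV+RANKL. The list of fusion and costimulation genes had 18 tested genes and a median of 0.14, or 0.03 without replicate 1 of EV, with Cd109, Tec and the kinase gene Syk (0.54 ± 0.24) above 0. The list of RANK signalling genes had a median of 0.01 over 23 genes, where the adaptor gene Gab2 read 0.67 ± 0.29 and Traf5 read 0.34 ± 0.18. Among 15 negative regulators the median was 0.06, with Trafd1 at 0.45 ± 0.19 and the glucocorticoid-induced gene Tsc22d3 at 0.4 ± 0.26, and it ran from -0.03 without replicate 2 of PBS to 0.19 without replicate 2 of EV.

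The macrophage identity list had a median of 0.31 over 17 genes (0.21 to 0.42 without single libraries), with 6 members above 0 at that p, Msr1, C1qa, C1qb, C1qc, C3ar1 and Igf1. For C1qa, C1qb and Igf1 at least, the multiplicative level was below 0 RPKM, so the interaction could only be above 0. Both the count of 6 and the list's median partly reflect this. In 9 of the 17 the additive level was at or below 0, and RANKL alone lowered 15 of the 17, against 8.29% of all tested genes. The summed macrophage markers given above were also lower with RANKL, and their part in these values was not tested. The 27 interferon-stimulated genes had a median of 0.12, with 20 above 0, and 13 additive levels at or below 0. RANKL lowered 18 of them (8.29% of all tested genes) and vesicles alone lowered 8 (0.685% of all). On top of RANKL, where vesicles changed 0.434% of all genes, none of the 27 passed. The median changes were -0.71, -0.57 and -0.46. That median was -0.08 without replicate 2 of PBS, -0.06 without replicate 1 of EV, and 0.37 and 0.36 without replicate 1 of PBS and replicate 2 of EV. Ifit3, an interferon-induced antiviral gene, had an interaction of 0.37 ± 0.23. It reached 1 RPKM only in PBS libraries, with 1.54 at 48 h and 1.48 at 72 h, so it passed the filter only through the group where it is high. The multiplicative levels of Ifit3 (-0.139 RPKM) and Ifi204 (-0.12 RPKM) were below 0, so both interactions could only be above 0. The count of 20 above 0 partly reflects this. The 16 genes of the NRF2 and iron list had a median of 0.2, or 0.13 and 0.35 without replicates 1 and 2 of EV, with 14 above 0, the cystine transporter gene Slc7a11 among them at 0.65 ± 0.33. For Nqo1, also among the 14, the interaction could only be above 0. The TGF-β and BMP list had a median of 0.2 over 14 genes, which ran from 0.01 without replicate 1 of EV to 0.34 without replicate 1 of PBS, with Tgfb1 at 0.31 ± 0.15 and the receptor gene Tgfbr1 at 0.33 ± 0.27.

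The cell cycle list was the one with nearly uniform small values below 0. Of 27 tested genes 26 had an interaction below 0, the median was -0.15, and none had an unadjusted p under 0.05. Ccnb1, a mitotic cyclin, read 24.1 and 22.3 with PBS, 27.7 and 26.1 with EV, 30.2 and 29.8 with RANKL, and 28.4 and 29.3 with both. Its partner gene Ccnb2 read 62.3 and 63.8, 69.6 and 69.4, 81 and 78, and 77.7 and 72.9. In both genes each agent alone gave higher values than PBS without overlap, and both agents together stayed at or under the RANKL libraries. The interactions were -0.26 ± 0.17 and -0.22 ± 0.13. Members of a list share libraries and move together, so the 26 are not independent.

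Lists of housekeeping metabolism had medians near 0 that took either sign without single libraries, from -0.13 to 0.11. The median was 0.01 for 24 genes of oxidative phosphorylation and the citrate cycle, -0.01 for 23 genes of cholesterol synthesis and LXR, and 0.01 for 22 genes of the unfolded protein response. Over 23 glycolysis and hypoxia genes, 11 interactions were above 0 and 12 below. Cox5a, a subunit of cytochrome oxidase, read -0.25 ± 0.25 and Idh2, the mitochondrial isocitrate dehydrogenase, -0.18 ± 0.19. The hexokinase genes Hk1 and Hk2 read 0.33 ± 0.2 and 0.19 ± 0.28, the lipid transport gene Apoe -0.24 ± 0.15, and the sterol sensor gene Nr1h3 0.22 ± 0.21. The chaperone gene Dnajb9 read 0.33 ± 0.25 and Herpud1, of protein degradation in the endoplasmic reticulum, -0.34 ± 0.27. Inflammatory genes had a median of 0.03 over 16, which was 0.33 without replicate 2 of PBS and -0.01 without replicate 2 of RANKL. The immediate early and MAP kinase genes had 0.08 over 21, with Egr1 at 0.94 ± 0.42 and the feedback inhibitor Spry1 at 0.31 ± 0.16, and this median ran from 0.03 without replicate 1 of EV to 0.18 without replicate 2 of RANKL.

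At 72 h, measured in other libraries, the interaction had the same sign as at 48 h in 60 of the 78 named genes and the other sign in 18. Among the 18 named genes past 1 log2 at 48 h the sign was the same in all 18, Acp5, Atp6v0d2, Nfatc1, Cst7, Plau, Cd109 and Rab15 included. Mmp8, C1qa, C1qb, Igf1 and Pram1 are also among the 18. Their multiplicative levels at 48 h were below 0 RPKM, so their sign at 48 h was fixed in advance. The same holds for Il10, Ifi204, Ifit3 and Nqo1, which are among the 78. The sign was the other in Ctsk (-0.52), Myc (0.24), Nqo1 (-0.27) and Ccr1 (-0.15), and in the interferon genes Irf7 (-0.76), Dhx58 (-0.61), Oas3 (-0.48) and Ifi44 (-0.4). Acp5 read 0.642 and 0.437 with PBS, 41.5 and 34 with EV, 166 and 309 with RANKL, and 663 and 435 with both, and its interaction was -3.41 ± 0.36 (-4.2 to -2.62, adjusted p = 0.00524). It was the 1 gene past the threshold (0.00965%), and 959 genes (9.25%) had an unadjusted p under 0.05, 650 below 0 (6.27%) and 309 above 0 (2.98%). That call was lost without replicate 1 of EV at 72 h (-3.27, adjusted p = 0.0518), and without each of the other 72 h libraries the value was -3.85 to -2.96. Atp6v0d2 was at -2.72, Nfatc1 at -0.73, Cst7 at -1.22, Plau at 1.14, Cd109 at 0.95 and Rab15 at 1.44. Mmp8 was at 0.27 ± 0.16, and its PBS libraries held only 0.51 and 0.78. The differences between the times were tested and passed in 0 genes by limma, with 246 (2.37%) at an unadjusted p under 0.05, so no gene was shown to differ. Across genes the interactions at the 2 times had r = 0.334 and rho = 0.286, with no library in common. Between the replicates of a group, 882 genes of RANKL, 873 of EV, 397 of PBS and 165 of EV+RANKL were over 0.5 log2 apart at 72 h, against 140 to 183 in the groups of 48 h.

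**Figure D5:**
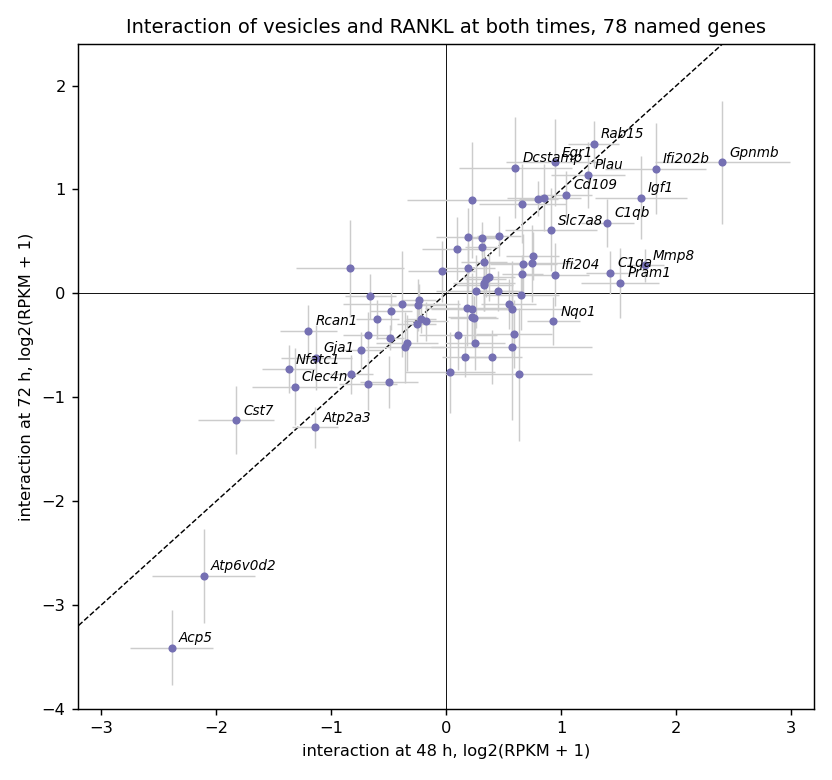
Interaction at 48 h (x axis) and at 72 h (y axis) for the 78 named genes, as log2(RPKM + 1), with standard errors as grey bars and the line of equal values dashed. Acp5 and Atp6v0d2 lie lowest at both times, Rab15, Plau and Cd109 lie above 0 at both, and Mmp8 is at 1.73 and 0.27.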

How the data were processed

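Per the labels' protocols, TruSeq mRNA libraries were made from total RNA, which gave 1 table of 20490 genes in 16 libraries. FastQC, HISAT2 and Partek are named per the submitters' processing notes, which also name the human builds GRCh38 and hg38 although the gene names are mouse symbols. Not given in the sources used here are the mouse build, its annotation and how reads were counted. No coordinates are printed. The deposited table was read as log2(RPKM + 1). That scale was found from the values: with base 2, 90.8% of 4122 ratios of low values in 2755 genes were within 0.05 of whole multiples, against 76.7% with base e and 29.7% with base 10. A total read count is not given, so depth is known only relative to the median library. The table holds 24 date-like names. The column of replicate 2 of EV+RANKL at 48 h is named without the R of RANKL, and its group was taken from the plus sign.

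Genes that reached 1 RPKM in at least 2 of 16 libraries were fitted with limma 3.58.1 in R 4.3.3 (trend, 8 group means, 12.6 total degrees of freedom). Benjamini-Hochberg adjusted p-values cover all tested genes, with a threshold of 0.05. The error of the additive distance came from the delta method with the same moderated variance. The method was tested on simulated data. Named genes are those of smallest p on each side of each level (at least 5 RPKM in a 48 h group, filled to 5 a side), 2 per list by smallest interaction p, and a panel. Genes outside this rule are marked where they appear. The members, lists and panel were chosen with earlier results of these data known. Alternatives were 48 h libraries only, a replicate block, median centring, quantile normalization, other added constants, other filters, robust moderation and leaving out each library.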

Additional observations from a re-analysis of the deposited data

Results flagged for a closer look

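Mmp8 was singled out because its interaction at 48 h, a test of the vesicle change with against without RANKL, passed the threshold. The interaction was 1.73, with a vesicle change of -1.7 without RANKL and 0.03 with it, and the RANKL libraries held 0.0438 and 0.0204 RPKM. It stayed past the threshold when each 48 h library was left out in turn (adjusted p from 0.0107 to 0.0192), and was lost with 0.1 RPKM added (adjusted p = 0.442). The gene passed the filter only through the PBS libraries of 48 h, and its multiplicative level, -0.683 RPKM, is one that no library can reach, so its interaction could take no other sign.

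Acp5 was singled out by the same test at 72 h, with an interaction of -3.41 that missed the threshold without replicate 1 of EV at 72 h (adjusted p = 0.0518). The vesicle change at 48 h was 3.49 without RANKL and 1.1 with it, for an interaction of -2.39 that missed the threshold (adjusted p = 0.0749). The difference between the times was not past the threshold.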

How the results depend on the processing

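Only 2 libraries a group limit the counts of calls, and depth could be judged only as relative depth. The interaction at 48 h passed in 4 genes with 48 h libraries only (1 above and 3 below 0), 2 with quantile normalization, 4 with 5 RPKM added, 8 with no filter, 0 of 7191 with a 5 RPKM filter (190 at an unadjusted p under 0.05), and 1 to 2 without single libraries. Under these, Acp5 passed with 48 h libraries only (adjusted p = 0.00699) and with 0.1 RPKM added (-3.4, adjusted p = 0.0189), Nfatc1 with 48 h libraries only (adjusted p = 0.00699), C1qa with quantile normalization, 5 RPKM added and no filter, and C1qb and Igf1 with 5 RPKM added. In the main fit the multiplicative levels of C1qa, C1qb and Igf1 were below 0 RPKM, so their interactions could only be above 0. The additive distance passed in 3 genes with 48 h libraries only (Rab15 and Pmaip1 among them, both at adjusted p = 0.0399), in 4 with no filter, and in 0 to 1 without single libraries.

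The samples share only replicate numbers, not a stated pairing. Differences between replicates 1 and 2 had correlations of 0.14 to 0.476 between groups of 48 h. With the replicate block the interaction passed in 6 genes (2 above and 4 below 0), Cst7, Rcan1, Nfatc1 and C1qa among them at adjusted p = 0.0141, 0.0263, 0.0417 and 0.0417. The block gave 336 genes for EV against PBS, 188 for EV+RANKL against RANKL and 8 for the interaction at 72 h.

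For the single comparisons, 48 h libraries only gave 506 genes for EV against PBS, 3147 for RANKL against PBS, 273 for EV+RANKL against RANKL and 2188 for EV+RANKL against EV (988 with all libraries). No filter gave 69 for EV against PBS, and quantile normalization 29 for EV+RANKL against RANKL. Without single libraries the counts ran from 34 to 119, 717 to 1388, 2 to 39 and 363 to 880 in that order. The libraries that moved them past 1.5 times were those of the groups compared: EV against PBS gave 59 and 35 without PBS replicates 1 and 2, and 34 and 50 without EV replicates 1 and 2. EV+RANKL against RANKL gave 6 and 11 without RANKL replicates 1 and 2, and 2 and 8 without EV+RANKL replicates 1 and 2. RANKL against PBS gave 856, 721, 908 and 717, and EV+RANKL against EV 444, 538, 587 and 363.

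The interaction at 72 h passed in 2 genes with quantile normalization, 3 with 5 RPKM added, 32 with no filter and 0 to 64 without single libraries. Leaving out 72 h libraries was chosen after seeing the data. It gave 3 and 2 genes without PBS replicates 1 and 2, 64 and 21 without RANKL, and 0 and 14 without EV. The difference between the times passed in 1 gene with 5 RPKM added, 9 with no filter and 0 to 1 without single libraries. Of the genes whose levels differ, 36 were nearer the multiplicative level with a gap of 1 (of 43), 99 to 136 without single libraries, and 72 in the set picked at 72 h. The medians of the genes called in both at 72 h ran from -0.113 to -0.024 (higher) and from 0.025 to 0.122 (lower).

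Values of genes that changed sign, none past the threshold, were as follows. With 0.1 RPKM added the interaction was -0.09 for Ifi44, -0.15 for Irf7, -0.07 for Ocstamp, -0.78 for Oscar and -0.69 for Slc9b2. Without single libraries it ran from -0.04 to 0.48 for Bcar3 (also -0.01), -0.06 to 0.39 for Dhx58, -0.2 to 0.4 for Ifi44 (also -0.12 and -0.18), -0.3 to 0.37 for Irf7 (also -0.11, -0.04 and -0.19), -0.05 to 0.55 for Oas3, and -0.42 to 0.86 for Oscar (also -0.11), and it reached 0.04 for Tnfrsf11a. The additive distance ran from -0.07 to 2.16 for Filip1l, -0.34 to 0.06 for Gja1 (also 0.01), and it reached 0.01 for Angptl2, -0.28 for Oscar, and 0.04 and 0.03 for Tnfrsf11a. The cause of these changes was not tested.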
